A study of Homo sapiens with 12 samples.

Results

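SR splicing factor genes encode RNA-binding proteins that carry a domain rich in arginine and serine and that help the splicing machinery to recognise exons. The 10 genes described here, SRSF1, SRSF2, SRSF3, SRSF4, SRSF5, SRSF6, SRSF7, SRSF9, SRSF10 and SRSF11, were taken by symbol from a table of 22379 genes, and all 10 passed the filter on low values that left 13811 genes for testing. They were measured in U2OS cells, a human osteosarcoma line, in 12 poly(A) RNA libraries that formed 6 groups of 2 replicates. By transient transfection, the cells received a plasmid encoding Cas9 and either a nontargeting guide (NONT) or a guide against NUP93, a structural protein of the nuclear pore (NUP93 knockout, NUP93-KO), or EXOSC5, which belongs to the 3′ to 5′ RNA-degrading exosome complex (EXOSC5 knockout, EXOSC5-KO). They were selected with puromycin and used as a pool, so the knockout groups may hold unedited cells and are not clones. Each genotype was left untreated or was exposed for 8 h to 1 μM triptolide, which inhibits the XPB helicase of TFIIH and thereby initiation by RNA polymerase II. The question was how the mRNA of these genes fell when transcription was blocked, and whether targeting either gene changed their levels or their fall.

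SR proteins bind exonic sequences through RNA recognition motifs, recruit U1 and U2 snRNP components to the flanking splice sites and are active or inactive according to the phosphorylation of their serines by SRPK and CLK kinases. Several also take part in mRNA export, and many hold their own mRNA level in check by including a poison exon or splicing in the 3′UTR, which yields transcripts that nonsense-mediated decay (NMD) removes. SRSF1, SRSF4, SRSF5, SRSF6 and SRSF9 carry a pair of RNA recognition motifs, whereas SRSF2, SRSF3, SRSF7, SRSF10 and SRSF11 carry a single one. The values below are spike-in-normalised abundances per gene: ERCC spike-in RNA was added per counted cell and the values were divided by a size factor from the spike-ins, so they follow mRNA per cell on an arbitrary scale. Each value sums all protein-coding and NMD transcripts that were assigned to the gene, so productive and poison-exon mRNA could not be told apart. In RNA pooled from many cells, a fall in every cell and a loss in some of the cells cannot be told apart either.

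Approximate depth was 8602580 to 11964197 reads per library. The mesenchymal markers VIM (24275 to 66974), COL1A1 (15197 to 57588) and SPARC (7368 to 19756) were high in all 12 libraries, COL1A2 and RUNX2 were at 4.05 to 42.0 and 9.56 to 404, and of 6 markers of other cell types EPCAM reached 47.6 and the others at most 8.27. NUP93 was 1395 and 1432 in untreated NUP93-KO, where the NONT replicates had 1753 and 2489. EXOSC5 stood at 216 and 148 in untreated EXOSC5-KO against 299 and 481. On this spike-in scale neither target was called lower (0.926 and 0.151, limma adjusted p-values). With each library rescaled to the typical gene, both were, with log2 differences of −0.49 for NUP93 in its knockout and −1.18 for EXOSC5 in its own (adjusted p = 0.0427 and 0.00516). On that scale NUP93 was also called lower in untreated EXOSC5-KO, by a log2 difference of −0.39 (adjusted p = 0.0387). The untreated NONT replicates were unevenly scaled: all 10 SR genes were higher in replicate 2, by a median factor of 1.49, against 1.09 in untreated NUP93-KO and 0.941 in untreated EXOSC5-KO. The labels do not say that replicates were separate cultures, so p-values measure only the spread between these libraries.

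In the GENCODE annotation of GRCh38, chromosome 1 holds SRSF4 (ENSG00000116350) from 29147743 to 29181900 on the minus strand, SRSF10 (ENSG00000188529) from 23964347 to 23980927 on the minus strand and SRSF11 (ENSG00000116754) from 70205682 to 70253052 on the plus strand. Chromosome 17 holds SRSF1 (ENSG00000136450) from 58000919 to 58007346 on the minus strand and SRSF2 (ENSG00000161547) from 76734115 to 76737333 on the minus strand. The other members are single on their chromosomes, with SRSF7 (ENSG00000115875) from 38743599 to 38751494 on the minus strand of chromosome 2, SRSF3 (ENSG00000112081) from 36594353 to 36605600 on the plus strand of chromosome 6, SRSF9 (ENSG00000111786) from 120461672 to 120495946 on the minus strand of chromosome 12, SRSF5 (ENSG00000100650) from 69726900 to 69772005 on the plus strand of chromosome 14, and SRSF6 (ENSG00000124193) from 43457893 to 43466046 on the plus strand of chromosome 20. All 10 have at least 1 transcript annotated as a target of NMD, against 46.5% of 12989 tested genes with a canonical coding transcript, and 4 members have at least 3 such transcripts (SRSF1, SRSF7, SRSF9 and SRSF11), against 16.4%. The canonical transcripts range from 1152 bases and 4 exons in SRSF9 to 7656 bases and 6 exons in SRSF10.

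The promoters of SRSF4 and SRSF9 are shown because their mRNAs fell furthest and least after triptolide in NONT cells, and that of SRSF3 because it is among the most abundant members. Each runs from 250 bases before to 50 bases after the RefSeq start on GRCh38.p14, 5′ to 3′ on the strand of the gene, with capitals where 1 of 4 motifs matched on either strand. The motifs were CCAAT, bound by NF-Y, and TATAAA, the TATA box. The others were GGGCGG, bound by SP1 family factors, and CACGTG, the E-box of MYC and related factors.
SRSF4, chr1:29181851-29182150, minus strand: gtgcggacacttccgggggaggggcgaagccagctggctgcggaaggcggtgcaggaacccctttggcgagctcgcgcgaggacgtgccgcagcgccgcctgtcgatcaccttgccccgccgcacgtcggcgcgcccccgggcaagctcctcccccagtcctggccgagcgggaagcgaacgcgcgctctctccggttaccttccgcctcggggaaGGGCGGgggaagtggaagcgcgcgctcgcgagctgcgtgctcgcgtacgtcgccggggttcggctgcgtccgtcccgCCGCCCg
SRSF3, chr6:36594112-36594411, plus strand: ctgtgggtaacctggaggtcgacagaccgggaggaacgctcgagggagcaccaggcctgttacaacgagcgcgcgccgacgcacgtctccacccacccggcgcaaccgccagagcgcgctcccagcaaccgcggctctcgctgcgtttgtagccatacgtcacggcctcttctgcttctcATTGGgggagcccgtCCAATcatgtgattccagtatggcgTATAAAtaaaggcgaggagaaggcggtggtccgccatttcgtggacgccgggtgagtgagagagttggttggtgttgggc
SRSF9, chr12:120469699-120469998, minus strand: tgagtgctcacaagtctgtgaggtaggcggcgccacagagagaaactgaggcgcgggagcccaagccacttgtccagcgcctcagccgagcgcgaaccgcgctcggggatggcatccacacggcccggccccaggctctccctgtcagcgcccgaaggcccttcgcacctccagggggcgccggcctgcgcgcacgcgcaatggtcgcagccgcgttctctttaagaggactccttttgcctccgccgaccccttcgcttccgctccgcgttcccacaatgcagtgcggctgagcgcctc
The SRSF3 window held TATAAA on the plus strand and CCAAT once on each strand, the SRSF4 window held GGGCGG on both strands, and the SRSF9 window held none of the 4 motifs. RefSeq windows were at hand for 9 members (SRSF2 had none), of which SRSF7 and SRSF11 had more than 1. Among the 9, TATAAA was found in 3 (SRSF3, SRSF7 and SRSF11), against 8.60% of 10497 tested genes with a window. The match in SRSF11 was on the minus strand, and SRSF7 and SRSF11 each had another window without it. Matches were counted on either strand and at any position, for members and all genes alike. GGGCGG was found in 4 (SRSF4, SRSF6, SRSF7 and SRSF11) against 77.2%, CCAAT in 1 (SRSF3) against 43.1%, and CACGTG in 0 against 12.7%. A match describes letters in the window and is not evidence of binding.

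AU-rich elements in the 3′UTR are bound by proteins that can speed the decay of an mRNA, so the 3′UTR of each canonical transcript was searched on the sense strand for TATTTAT, the DNA spelling of the core of such an element. Of the members, 5 held it (SRSF1, SRSF3, SRSF7, SRSF10 and SRSF11), against 36.7% of tested genes, and the median 3′UTR was 1890.5 bases long in the members against 1370.0 in all of them. The sites are shown with 10 bases on either side, from GRCh38, with the element in capitals.
SRSF10, chr1:23967034-23967060, minus strand: attcagcaaaTATTTATtgagccctta
SRSF10, chr1:23964572-23964598, minus strand: agtttattagTATTTATtttaagctta
SRSF11, chr1:70252020-70252046, plus strand: accgtatttgTATTTATttacgctact
SRSF11, chr1:70252879-70252905, plus strand: attcttaggaTATTTATtttcagtgaa
SRSF7, chr2:38743675-38743701, minus strand: ctggcaggctTATTTATctgttgcact
SRSF3, chr6:36603562-36603588, plus strand: ctaaacaaatTATTTATttccaccttt
SRSF1, chr17:58001740-58001766, minus strand: ggactgctccTATTTATagtctcagaa
SRSF1, chr17:58001623-58001649, minus strand: ctcttctcccTATTTATgtccccttag
SRSF4, SRSF6, SRSF5, SRSF9 and SRSF2 had no TATTTAT in 3′UTRs of 667, 3180, 544, 347 and 1051 bases.

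Untreated NONT cells expressed the 10 genes over a range of levels. Divided by the length of the canonical transcript, the value was highest for SRSF2, a speckle protein also known as SC35, at 2014 and 3046 per kb in the 2 replicates. SRSF9 followed at 1703 and 2257, SRSF3, the smallest family member and an adaptor for mRNA export, at 1369 and 1921, SRSF7, which carries a zinc knuckle, at 1123 and 1586, and SRSF1, the founding member also known as ASF/SF2, at 980.5 and 1499. The ranges of these neighbours overlapped across the 2 replicates, of which replicate 2 was higher for every member, but their order was the same within each replicate. A gap followed, since SRSF5 was at 542 and 791 per kb, SRSF6 at 424 and 604, SRSF4 at 303 and 532, SRSF11 at 223 and 393 and SRSF10 at 171 and 261. Here too the ranges of neighbours overlapped and the order was the same within each replicate. Other isoforms than the canonical one would shift these levels. As a share of all gene values, the members together made up 0.191% to 0.224% in the 6 untreated libraries.

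**Figure D1:**
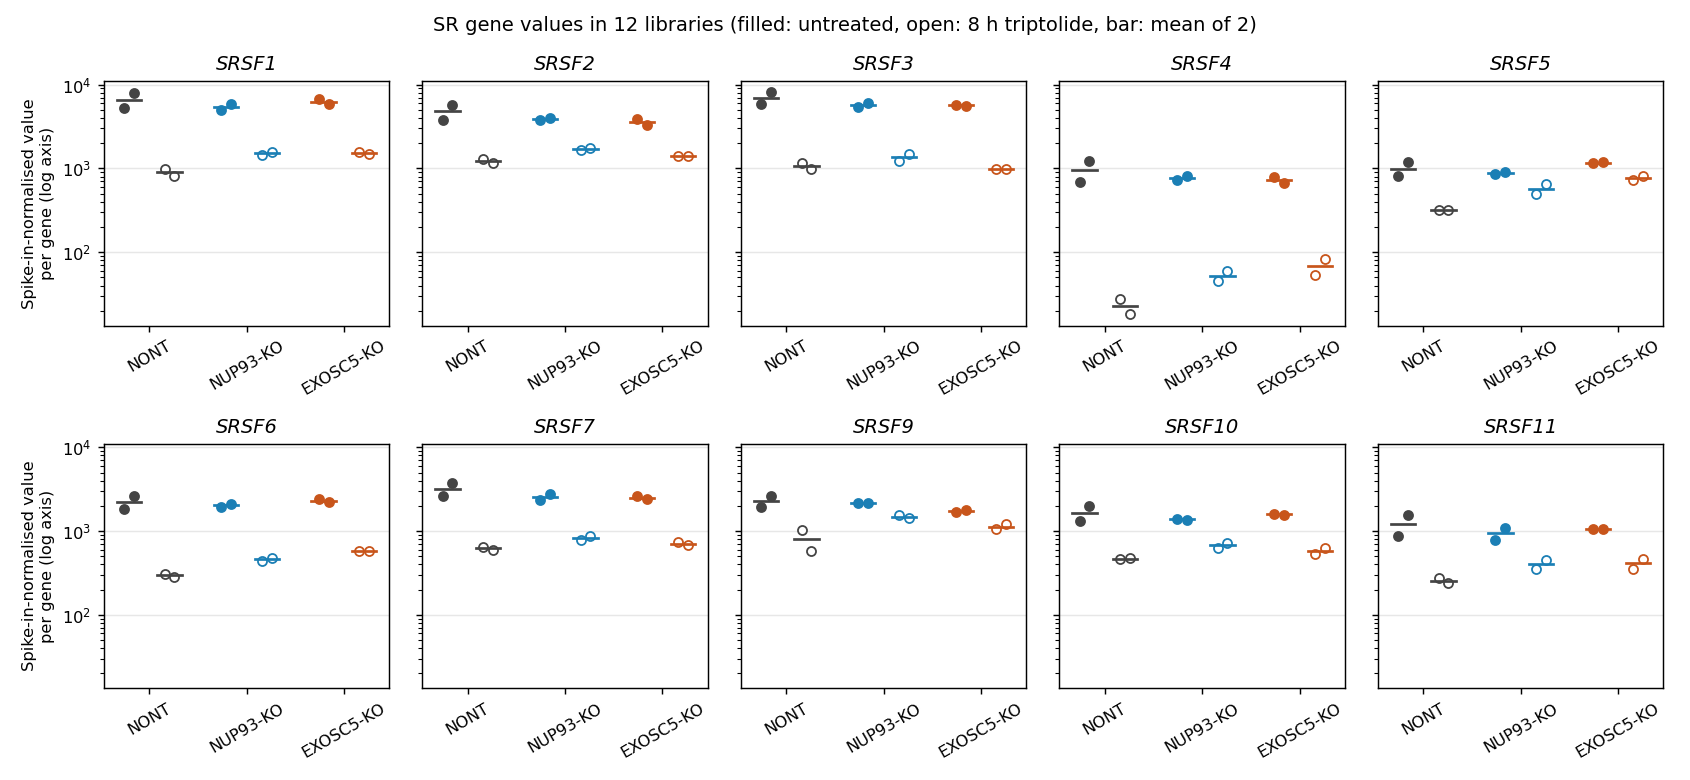
Spike-in-normalised value (log axis) of each SR gene in the 12 libraries, with 2 points per group (filled, untreated; open, 8 h of triptolide) and a bar at their mean. In every panel and genotype both open points lie below both filled points, and the drop is longest for SRSF4. Among all tested genes, 90.0%, 55.1% and 64.3% were called lower in the NONT, NUP93-KO and EXOSC5-KO cells. The share of them that separate fully was not counted.

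After 8 h of triptolide the mRNA of the SR genes was lower in all 3 genotypes, and the members differed widely in how much was left. In NONT cells the mean after triptolide was 2.38% of the untreated mean for SRSF4 and 35.4% for SRSF9, with the other 8 members between 13.2% and 32.2%. All 10 members passed the limma test as lower in NONT and in EXOSC5-KO and 9 of 10 did in NUP93-KO, where SRSF9 missed the threshold (log2 fold change −0.54 ± 0.23, SE, adjusted p = 0.0554). Among all tested genes 90.0%, 55.1% and 64.3% were called lower on this scale for NONT, NUP93-KO and EXOSC5-KO, and 0.0507%, 0.138% and 0.0796% higher, so a decrease by itself was common. No member was called higher. The median log2 fold change of the members was −2.26, −1.41 and −1.63 in the NONT, NUP93-KO and EXOSC5-KO cells, beside −1.62, −0.92 and −1.08 over all tested genes. The p-values quoted for this fit are limma values adjusted by Benjamini-Hochberg over 13811 genes.

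Among the members with paired RNA recognition motifs, SRSF4, also known as SRp75 and the one with the longest arginine- and serine-rich domain, lost most. The value of SRSF4 was 697 and 1223 untreated and 27.5 and 18.1 after triptolide in NONT, 734 and 810.2 untreated and 44.8 and 59.6 after triptolide in NUP93-KO, and 779 and 677 untreated and 52.8 and 82.3 after triptolide in EXOSC5-KO. The treated libraries lay far below the untreated ones in all genotypes, and 2.38%, 6.76% and 9.28% was left in the NONT, NUP93-KO and EXOSC5-KO cells. The log2 fold changes were −5.31 ± 0.32, −3.87 ± 0.32 and −3.44 ± 0.32 (SE), with adjusted p-values of 5.43e-10, 5.02e-08 and 1.43e-07. In NONT this placed SRSF4 at percentile 3.60 of the tested genes, counted from the strongest decrease.

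SRSF6 and SRSF1 fell by similar factors. The value of SRSF6 was 1844 and 2631 untreated and 309 and 283 after triptolide in NONT, 1949 and 2107 untreated and 444 and 476 after triptolide in NUP93-KO, and 2423 and 2199 untreated and 579 and 582 after triptolide in EXOSC5-KO. No treated value came near an untreated one, and 13.2%, 22.7% and 25.1% was left. The value of SRSF1 was 5239 and 8007 untreated and 972 and 819 after triptolide in NONT, 5033 and 5873 untreated and 1446 and 1565 after triptolide in NUP93-KO, and 6654 and 5867 untreated and 1562 and 1490.4 after triptolide in EXOSC5-KO. SRSF1, which regulates constitutive and alternative splicing and shuttles between nucleus and cytoplasm, kept 13.5%, 27.6% and 24.4%. Their log2 fold changes in NONT were −2.89 ± 0.20 and −2.86 ± 0.20 (SE), which differ by less than either error. SRSF1 and SRSF6 each overlap an annotated protein-coding gene on the same strand (ENSG00000266086 and ENSG00000288000). The former was not among the rows of the table and the latter was listed at 0 in all 12 libraries.

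SRSF5 and SRSF9, also of the paired class, kept the largest shares of their mRNA. The value of SRSF5 was 810.4 and 1183 untreated and 322 and 319.7 after triptolide in NONT, 867 and 918 untreated and 494 and 646 after triptolide in NUP93-KO, and 1147 and 1185 untreated and 719 and 810.2 after triptolide in EXOSC5-KO. The groups did not overlap, with 32.2%, 63.8% and 65.6% left. The value of SRSF9 was 1961 and 2601 untreated and 1028 and 586 after triptolide in NONT, 2174 and 2173 untreated and 1539 and 1446 after triptolide in NUP93-KO, and 1710.0 and 1773 untreated and 1057 and 1206 after triptolide in EXOSC5-KO. SRSF9, also known as SRp30c, kept 35.4%, 68.7% and 65.0%, and its treated NONT replicates were the least alike of the 10 members in that group, replicate 2 being 0.570 times the first. In the knockouts the log2 fold changes of SRSF5 were −0.66 ± 0.21 and −0.61 ± 0.21 (SE; adjusted p = 0.0146 and 0.0196), and that of SRSF9 in EXOSC5-KO was −0.62 ± 0.23 (adjusted p = 0.0256). These calls were fragile: the SRSF5 call was lost without NUP93-KO untreated replicate 2 or NUP93-KO triptolide replicate 1, and the SRSF5 and SRSF9 calls in EXOSC5-KO were lost without EXOSC5-KO untreated replicate 1 or 2 or EXOSC5-KO triptolide replicate 1, with adjusted p-values of 0.0708 to 0.188.

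Among the members with a single RNA recognition motif, SRSF3 and SRSF7, which are close relatives, fell furthest. The value of SRSF3 was 5787 and 8123 untreated and 1146 and 989 after triptolide in NONT, 5408 and 5979.5 untreated and 1225 and 1478 after triptolide in NUP93-KO, and 5723 and 5576 untreated and 995 and 987 after triptolide in EXOSC5-KO. The treated values of all genotypes lay between 987 and 1478, and 15.4%, 23.7% and 17.5% was left. The value of SRSF7 was 2645 and 3737 untreated and 645 and 598 after triptolide in NONT, 2350.3 and 2739.8 untreated and 778 and 882 after triptolide in NUP93-KO, and 2633 and 2383 untreated and 733 and 682 after triptolide in EXOSC5-KO. Treated and untreated libraries were again apart, with 19.5%, 32.6% and 28.2% left. The log2 fold changes were −2.69 ± 0.19, −2.08 ± 0.19 and −2.51 ± 0.19 (SE) for SRSF3 and −2.34 ± 0.20, −1.61 ± 0.20 and −1.82 ± 0.20 for SRSF7 in the NONT, NUP93-KO and EXOSC5-KO cells.

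SRSF11, SRSF2 and SRSF10 fell less. The value of SRSF11 was 883 and 1555 untreated and 272 and 242 after triptolide in NONT, 782 and 1096 untreated and 357 and 447 after triptolide in NUP93-KO, and 1054 and 1071 untreated and 351 and 471 after triptolide in EXOSC5-KO. SRSF11, a nuclear protein that can contact the U2AF heterodimer, kept 21.1%, 42.8% and 38.6%. The value of SRSF2 was 3803 and 5751 untreated and 1298 and 1156 after triptolide in NONT, 3738 and 3981 untreated and 1669.6 and 1746 after triptolide in NUP93-KO, and 3872 and 3269 untreated and 1421 and 1422 after triptolide in EXOSC5-KO. SRSF2 kept 25.7%, 44.3% and 39.8%. The value of SRSF10 was 1312 and 1995 untreated and 468 and 472 after triptolide in NONT, 1398 and 1354 untreated and 634 and 716 after triptolide in NUP93-KO, and 1586 and 1571 untreated and 529.5 and 633 after triptolide in EXOSC5-KO. SRSF10, which becomes a splicing repressor when it is dephosphorylated, kept 28.4%, 49.0% and 36.8%. The log2 fold changes in NONT were −2.19 ± 0.26, −1.93 ± 0.20 and −1.78 ± 0.21 (SE), and all 3 members passed the test in each genotype. SRSF2 shares coding sequence with its retrocopy SRSF8, and the division of reads between them is uncertain.

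The order of the members was much the same in each genotype. Spearman's rho between the log2 fold changes of the 10 members was 0.988 for NONT and NUP93-KO, 0.903 for NONT and EXOSC5-KO and 0.915 for NUP93-KO and EXOSC5-KO, comparisons that share no library. It is given as a description over 10 genes. SRSF4 fell most in each genotype, and SRSF5 and SRSF9 fell least in each.

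**Figure D2:**
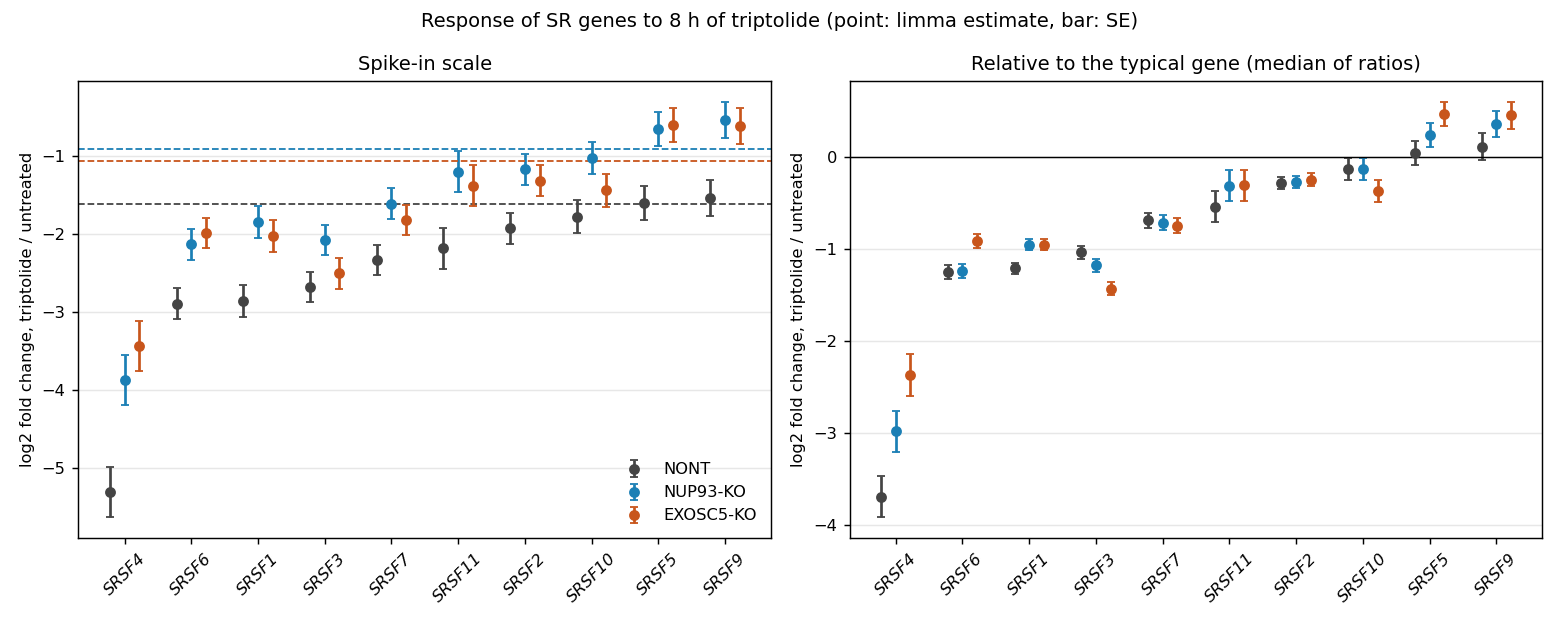
Log2 fold change of each SR gene (limma estimate ± SE) between triptolide and untreated libraries in the NONT, NUP93-KO and EXOSC5-KO cells, on the spike-in scale (left, dashed lines at the median of all tested genes) and relative to the typical gene (right). SRSF4 lies lowest in both panels, and SRSF5 and SRSF9 lie near or above 0 in the right panel.

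To set the members against the general loss of mRNA, the libraries were rescaled by median of ratios, which puts the typical gene near 0 and removes errors of cell counting and spike-in volume. Relative to the typical gene, 7, 6 and 7 members fell in the NONT, NUP93-KO and EXOSC5-KO cells, beside 30.3%, 29.7% and 28.7% of tested genes. No member rose in NONT or NUP93-KO, and 2 rose in EXOSC5-KO, beside 27.2%, 26.7% and 26.2% of genes. SRSF1, SRSF2, SRSF3, SRSF4, SRSF6 and SRSF7 were called lower in each genotype, SRSF11 in NONT alone (−0.54 ± 0.17, SE) and SRSF10 in EXOSC5-KO alone (−0.37 ± 0.12). These calls were not shown to differ between genotypes. The SRSF11 response differed from NONT by 0.23 in each knockout (limma adjusted p = 0.805 in NUP93-KO and 0.783 in EXOSC5-KO). For SRSF10 in EXOSC5-KO the difference from NONT was −0.23 (adjusted p = 0.695), and the knockouts were not tested against each other. The relative log2 fold change of SRSF4 was −3.69 ± 0.22, −2.98 ± 0.22 and −2.37 ± 0.22 (SE) in the NONT, NUP93-KO and EXOSC5-KO cells, or 12.9-, 7.87- and 5.16-fold lower than the typical gene.

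SRSF1 stood at −1.21, −0.95 and −0.95, SRSF3 at −1.03, −1.18 and −1.43, SRSF6 at −1.24, −1.23 and −0.91, and SRSF7 at −0.69, −0.71 and −0.74 on the log2 scale, in the same order of genotypes. The decreases of SRSF2 were small (−0.28, −0.27 and −0.24), and the last one was lost without EXOSC5-KO untreated replicate 1 (adjusted p = 0.0865). SRSF5 and SRSF9 rose relative to the typical gene in EXOSC5-KO, by 0.47 ± 0.13 and 0.46 ± 0.15 (SE; adjusted p = 0.00974 and 0.0224), although both were lower on the spike-in scale. Without EXOSC5-KO untreated replicate 1 or EXOSC5-KO triptolide replicate 2 neither passed, and the values without them were 0.36 to 0.39. The SRSF10 call in EXOSC5-KO was lost without either untreated EXOSC5-KO replicate or EXOSC5-KO triptolide replicate 1 (−0.42 to −0.24), and the SRSF11 call in NONT without NONT untreated replicate 2 or NONT triptolide replicate 1 (−0.47 to −0.39). In NONT, SRSF5, SRSF9 and SRSF10 stood at 0.04, 0.11 and −0.13, and none passed. In NUP93-KO, SRSF10 and SRSF11 stood at −0.13 and −0.31, and in EXOSC5-KO SRSF11 stood at −0.31, again without passing. In NUP93-KO, SRSF5 was at 0.24 ± 0.13 and SRSF9 at 0.36 ± 0.15 (SE), and neither passed.

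With each library scaled instead to the same sum over genes, 8 members were lower in each genotype, all but SRSF5 and SRSF9, and none was higher, beside 38.2%, 39.3% and 36.8% of genes lower and 15.2%, 13.9% and 14.7% higher. The share of higher calls among all calls moved from 47.3% by median of ratios to 28.5% with equal sums in NONT, from 47.3% to 26.1% in NUP93-KO and from 47.7% to 28.5% in EXOSC5-KO. With equal sums the median log2 fold change of all tested genes was −0.32, −0.36 and −0.29. On that scale SRSF5 and SRSF9 stood at 0.18 and 0.17 in EXOSC5-KO and did not pass. SRSF4 was called lower on each scale.

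The make-up of the SR mRNA pool shifted with triptolide. The 10 members made up 0.191% to 0.224% of all gene values in the untreated libraries and 0.0999% to 0.112% in the treated ones, with no overlap between the 6 libraries of each kind. The typical gene lost share too. With equal sums the median log2 fold change was −0.32, −0.36 and −0.29 over all tested genes in the NONT, NUP93-KO and EXOSC5-KO cells. That of the members was −0.93, −0.84 and −0.84. Within the pool, SRSF4 held 2.65% to 3.32% untreated and 0.330% to 0.984% after triptolide. SRSF3 held 20.8% to 23.2% and 11.8% to 18.0%, and SRSF1 20.6% to 24.1% and 14.9% to 19.5%. These shares were lower in all treated libraries than in any untreated one. SRSF9 held 6.20% to 8.90% untreated and 10.7% to 17.8% after triptolide, and SRSF5 3.22% to 4.63% and 4.97% to 9.68%. SRSF2 held 12.8% to 15.6% and 17% to 21.1%, and SRSF10 5.01% to 6.14% and 6.62% to 8.60%. The shares of SRSF9, SRSF5, SRSF2 and SRSF10 were higher in all treated libraries. SRSF7 held 9.32% to 10.6% and 8.15% to 10.9%, SRSF6 7.15% to 8.79% and 4.76% to 7.23%, and SRSF11 3.20% to 4.22% and 4.14% to 5.63%, ranges that overlap. Shares of a sum are not independent of each other, and they do not depend on the scale of a library.

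**Figure D3:**
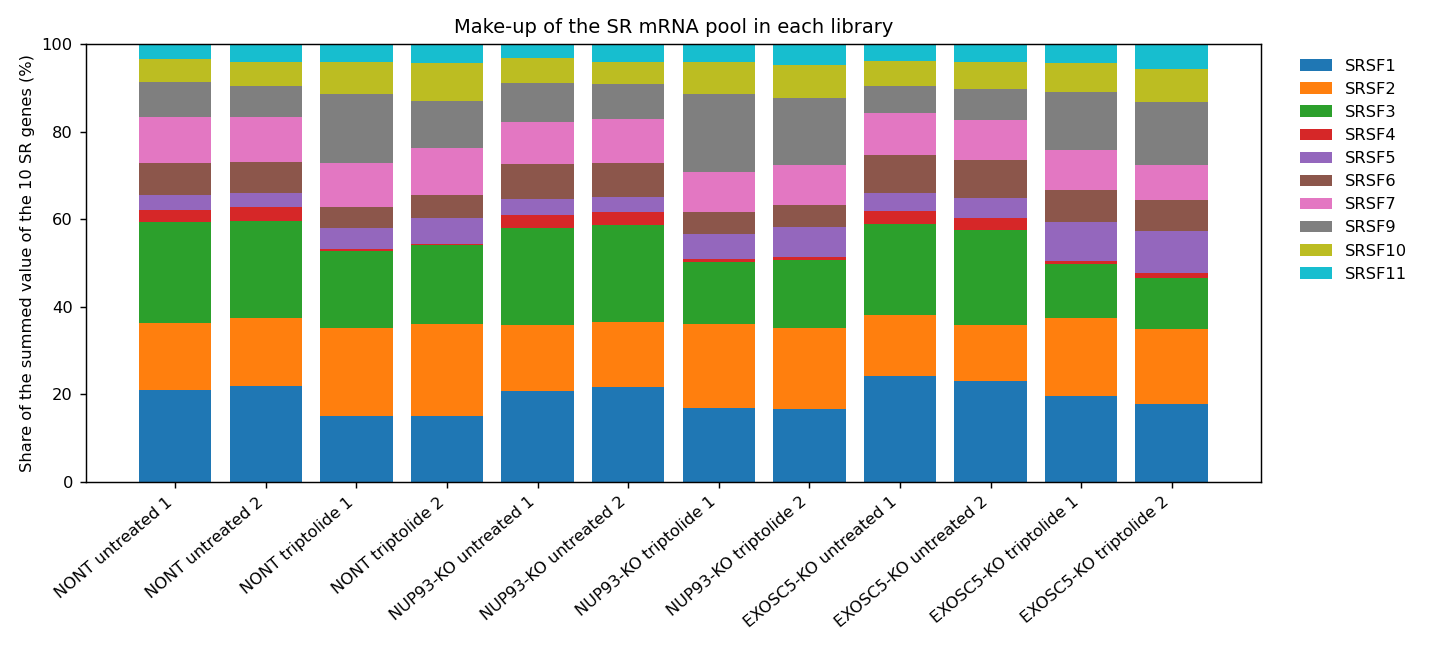
Share of each SR gene in the summed spike-in-normalised value of the 10 genes (%), stacked to 100%, in each of the 12 libraries. The SRSF9 and SRSF5 segments are wider and the SRSF4 and SRSF3 segments narrower in the 6 triptolide libraries than in the 6 untreated ones.

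Whether the knockouts changed the response was tested as the difference between the log2 fold changes of each knockout and NONT. On the spike-in scale all 10 differences were above 0 in both knockouts, meaning a smaller fall than in NONT, with a median of 0.85 in NUP93-KO and 0.81 in EXOSC5-KO, beside 0.74 and 0.57 over all tested genes. Both differences use the same NONT libraries. No member passed the limma threshold in either, where 0.76% and 0.319% of genes were called higher, while 10 and 7 members had an unadjusted p under 0.05, beside 41.3% and 23.1% of genes. The largest was SRSF4, with 1.43 in NUP93-KO (95% interval 0.47 to 2.4, adjusted p = 0.0690) and 1.87 in EXOSC5-KO (0.90 to 2.83, adjusted p = 0.0958). The smallest was SRSF3, with 0.61 (0.03 to 1.18) and 0.18 (−0.40 to 0.75).

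In NUP93-KO the differences of the other members were 1.01 for SRSF1, 0.76 for SRSF2, 0.95 for SRSF5, 0.76 for SRSF6, 0.72 for SRSF7, 1.00 for SRSF9, 0.75 for SRSF10 and 0.98 for SRSF11. In EXOSC5-KO they were 0.83 for SRSF1, 0.61 for SRSF2, 1.00 for SRSF5, 0.90 for SRSF6, 0.51 for SRSF7, 0.91 for SRSF9, 0.34 for SRSF10 and 0.80 for SRSF11. These counts depended on single NONT libraries. Without NONT untreated replicate 1, 10 members were called in NUP93-KO and 9 in EXOSC5-KO, but so were 51.0% and 38.2% of all genes. Without NONT triptolide replicate 1 the numbers were 3 and 2, with 18.0% and 2.93% of genes. Relative to the typical gene, no member passed the adjusted threshold either, beside 0.0145% and 0.0796% of genes called higher. In NUP93-KO, 2 members were higher and 0 lower at an unadjusted limma p under 0.05, beside 5.83% and 3.73% of genes. In EXOSC5-KO, 4 were higher and 1 lower, beside 5.88% and 3.82%. Relative to the typical gene SRSF4 stood at 0.71 (0.01 to 1.41) and 1.32 (0.62 to 2.02), and SRSF3 at −0.14 (−0.36 to 0.08) and −0.39 (−0.61 to −0.18, adjusted p = 0.225). On that scale the others were 0.26 for SRSF1, 0.01 for SRSF2, 0.20 for SRSF5, 0.01 for SRSF6, −0.02 for SRSF7, 0.25 for SRSF9, 0.01 for SRSF10 and 0.23 for SRSF11 in NUP93-KO and 0.25 for SRSF1, 0.04 for SRSF2, 0.43 for SRSF5, 0.33 for SRSF6, −0.06 for SRSF7, 0.34 for SRSF9, −0.23 for SRSF10 and 0.23 for SRSF11 in EXOSC5-KO. With each library scaled to the sum of its mitochondrially encoded mRNAs, the differences were smaller than on the spike-in scale. The median of the members was then 0.19 in NUP93-KO and 0.36 in EXOSC5-KO, beside 0.088 and 0.13 over all tested genes. On that mitochondrial scale no member passed, and 1 and 2 members were higher at an unadjusted limma p under 0.05, beside 4.26% and 5.31% of genes. The treated SRSF4 values were low in NONT, where 27.5 and 18.1 stand for about 45.7 and 36.9 reads.

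Without drug, no SR gene passed the test in either knockout on the spike-in scale, and 3 were lower in EXOSC5-KO relative to the typical gene. On the spike-in scale the 0 calls stood beside 0.00724% (lower) and 0.0145% (higher) of genes for NUP93-KO and, for EXOSC5-KO, 0.0362% (lower) and 0.485% (higher). No member had an unadjusted p under 0.05. In NUP93-KO the log2 fold changes were −0.25 for SRSF1, −0.28 for SRSF2, −0.27 for SRSF3, −0.26 for SRSF4, −0.13 for SRSF5, −0.12 for SRSF6, −0.31 for SRSF7, −0.06 for SRSF9, −0.23 for SRSF10 and −0.34 for SRSF11, all below 0. In EXOSC5-KO they were −0.05 for SRSF1, −0.39 for SRSF2, −0.28 for SRSF3, −0.35 for SRSF4, 0.25 for SRSF5, 0.07 for SRSF6, −0.33 for SRSF7, −0.38 for SRSF9, −0.04 for SRSF10 and −0.14 for SRSF11, of which 8 were below 0. The SE was 0.19 to 0.32, so changes of this size were not detectable between these libraries.

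Relative to the typical gene, SRSF2, SRSF7 and SRSF3 were lower in untreated EXOSC5-KO, beside 3.64% of genes, and no member was higher, beside 2.06%. Their log2 fold changes were −0.49 (adjusted p = 0.00246), −0.42 (0.0136) and −0.38 (0.0118), with an SE of 0.07, 0.08 and 0.07. SRSF9 at −0.47 and SRSF4 at −0.44 did not pass (0.0983 and 0.325). SRSF1, SRSF6, SRSF10 and SRSF11 stood at −0.15, −0.03, −0.13 and −0.24, and SRSF5 at 0.15. Without NONT untreated replicate 1, NONT untreated replicate 2 or EXOSC5-KO untreated replicate 1, 1 of the 3 calls was left, SRSF2, and the SRSF7 call was lost without EXOSC5-KO untreated replicate 2 as well. Their values without those libraries were −0.44 to −0.34. In untreated NUP93-KO no member passed on this scale, beside 0.427% and 0.485% of genes lower and higher. 4 members had an unadjusted p under 0.05 there, SRSF1 (−0.18), SRSF2 (−0.20), SRSF3 (−0.20) and SRSF7 (−0.24), beside 5.59% of genes. The others were −0.19 for SRSF4, −0.06 for SRSF5, −0.05 for SRSF6, 0.02 for SRSF9, −0.16 for SRSF10 and −0.27 for SRSF11. Lower calls in untreated EXOSC5-KO were not confined to the SR genes. Of the splicing genes described below, 3 of 11 SR-related coactivators and 3 of 10 splice site factors were lower there on this scale. So were 2 of 21 hnRNP genes, 1 of 7 Sm core genes and 0 of 7 kinases and TNPO3, and none was higher.

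**Figure D4:**
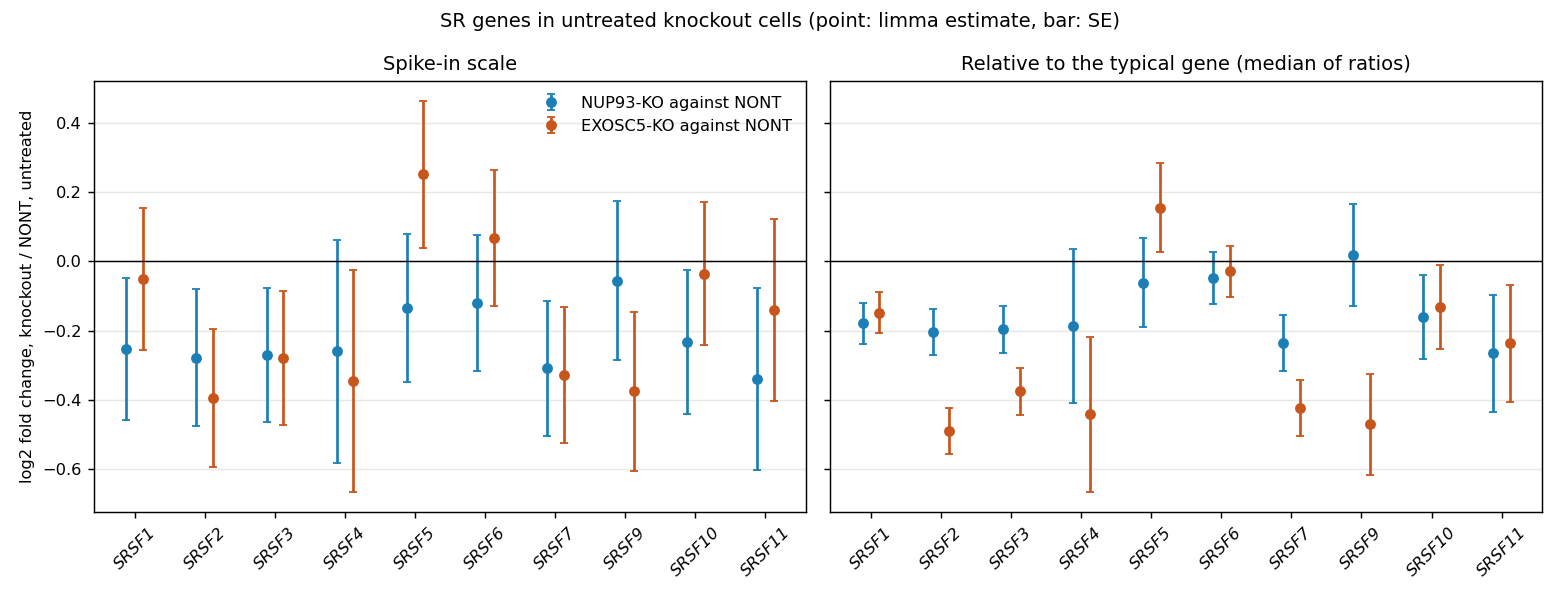
Log2 fold change of each SR gene (limma estimate ± SE) between untreated knockout and untreated NONT libraries, on the spike-in scale (left) and relative to the typical gene (right). The errors are narrower on the right, where SRSF2, SRSF3 and SRSF7 of EXOSC5-KO lie at −0.49, −0.38 and −0.42.

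Other genes of the pathway were counted on the scale relative to the typical gene, where 30.3% of genes were lower and 27.2% higher in NONT. Of the SR family genes outside the set, SRSF8 was 706 and 982 untreated and 209 and 132 after triptolide in NONT, a relative log2 fold change of −0.67 ± 0.17 (SE), and SRSF12 was too low to test (0 to 10.2). Among 7 tested genes of the SR protein kinases and TNPO3, which phosphorylate SR proteins and carry them into the nucleus, 5, 6 and 5 were lower and 1, 1 and 0 higher in the NONT, NUP93-KO and EXOSC5-KO cells. The nuclear kinases CLK1 and CLK2 fell most: CLK1 went from 193 and 307 to 5.11 and 3.36 in NONT, a relative log2 fold change of −4.07 ± 0.31 (SE), and CLK2 stood at −4.30 ± 0.62, with about 6.86 to 8.47 reads for CLK1 and 0.997 to 3.24 for CLK2 in the treated NONT libraries. In NUP93-KO cells CLK1 stood at −3.95 and CLK2 at −3.47, and in EXOSC5-KO cells CLK1 stood at −3.61 and CLK2 at −3.02. SRPK1, the cytoplasmic kinase, stood at 0.35, 0.69 and 0.34 in the NONT, NUP93-KO and EXOSC5-KO cells (the last with adjusted p = 0.0580), and the import receptor TNPO3 at −0.14 (adjusted p = 0.239), −0.47 and −0.39.

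Of 11 SR-related coactivators, proteins with arginine- and serine-rich domains that work with SR proteins in splicing, 9, 8 and 11 were lower in the NONT, NUP93-KO and EXOSC5-KO cells and none was higher. PNN went from 1171 and 2013 to 44.5 and 59.8 in NONT, with relative log2 fold changes of −3.23, −2.33 and −2.48 in the 3 genotypes, and SON, a speckle scaffold, stood at −1.53, −0.97 and −1.45. At the other end TRA2A stood at −0.34, −0.51 and −0.45, and BCLAF1 at −0.11, 0.03 and −0.28, of which the last alone passed. With equal sums 11, 10 and 11 of the coactivators were lower and none was higher.

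The hnRNP genes, whose proteins often oppose SR proteins at exons, included more higher than lower calls: of 21 tested, 4, 4 and 4 were lower and 11, 13 and 11 higher in the NONT, NUP93-KO and EXOSC5-KO cells, with a median relative log2 fold change of 0.34, 0.39 and 0.40. HNRNPA2B1 stood at 0.77, 0.89 and 0.71 and HNRNPC at 0.75, 0.81 and 0.70, while HNRNPA0 stood at −0.95, −1.0 and −1.0 and HNRNPF at −0.88, −0.77 and −0.50. On the spike-in scale and on a mitochondrial scale all 21 were below 0 in each genotype, and with equal sums the medians were 0.03, 0.06 and 0.11 and 6, 5 and 7 were lower and 8, 7 and 6 higher. Of 7 Sm core genes, the ring of the spliceosomal snRNPs, 0, 0 and 0 were lower and 5, 6 and 5 higher in these genotypes, from −0.18 for SNRPD1 and 0.14 for SNRPD3 to 0.78 for SNRPE and 0.88 for SNRPD2 in NONT. In the knockouts SNRPD2 stood at 0.86 and 0.84, SNRPE at 0.60 and 0.70, SNRPD3 at 0.66 and 0.23 and SNRPD1 at −0.07 and −0.20, in the order NUP93-KO, EXOSC5-KO. With equal sums 1, 1 and 1 were lower and 4, 2 and 2 higher, and on the spike-in scale all 7 were below 0 in each genotype.

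Of 10 factors that recognise splice sites, 4, 3 and 3 were lower and 2, 2 and 2 higher in the NONT, NUP93-KO and EXOSC5-KO cells. LUC7L, a U1 snRNP-associated protein, stood at −1.56, −1.5 and −1.62 and LUC7L2 at −0.87, −1.02 and −0.91, against 0.21, 0.32 and 0.36 for U2AF2, which binds the polypyrimidine tract, and 0.68, 0.65 and 0.68 for SNRPC, a U1 protein. The medians were −0.61 for the SR genes, −0.68 for the coactivators, −1.43 for the kinases and TNPO3, −0.25 for the splice site factors and 0.65 for the Sm core genes in NONT, beside −0.01 over all tested genes. With equal sums 7, 7 and 7 were lower and 1, 1 and 1 higher among the splice site factors, and on the spike-in scale all of these lists had medians below 0. These medians describe the lists and were not tested against each other.

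**Figure D5:**
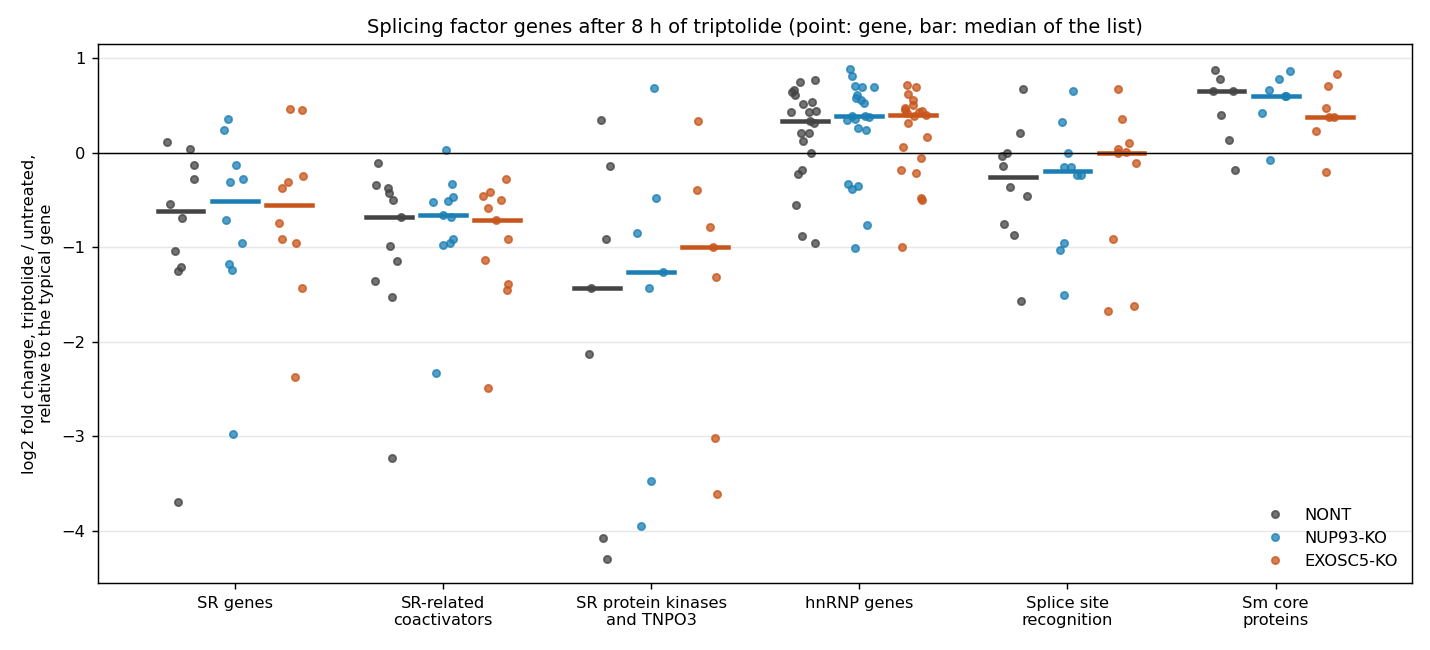
Log2 fold change after triptolide relative to the typical gene, for each tested gene (points) and the median (bars) of the SR genes and 5 other lists of splicing genes, in the NONT, NUP93-KO and EXOSC5-KO cells. The SR-related coactivators lie at or below 0 apart from 1 value of 0.03, whereas the medians of the hnRNP and Sm core genes lie above 0.

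The pattern of the SR genes over the 12 libraries was compared with that of 10297 other genes with an untreated mean of at least 100. This pattern was the mean of the members, each centred on its own mean but not scaled. SRSF4, with the largest change (relative log2 fold change −3.69 in NONT), therefore weighed most in it. SRSF5 and SRSF9 (0.04 and 0.11) did not share that fall. The genes whose values relative to the typical gene followed the mean of the members most closely were FASTKD2, a mitochondrial RNA-binding protein (Pearson's r = 0.992), CDCA8, a chromosomal passenger protein (0.990), GMEB2, a DNA-binding transcriptional regulator (0.990), DOLPP1, a dolichyl pyrophosphate phosphatase (0.990), and AMD1, an enzyme of polyamine synthesis (0.989), over 12 libraries that fall into treated and untreated ones. Among the 10 members, the log2 fold change in NONT went with transcript length at a Spearman's rho of −0.455, with 3′UTR length at −0.358, with the number of ATTTA pentamers in the 3′UTR at −0.252, with the number of annotated NMD transcripts at 0.163 and with exon number at −0.0189, where a negative rho means that members with more of the feature fell further. These are descriptions over 10 genes, and the members with and without TATTTAT overlapped: SRSF4, with none, fell most, and SRSF10, with 2 sites, was among the 3 that fell least in NONT.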

How the data were processed

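The authors deposited 1 table of spike-in-normalised gene values (signal, in arbitrary units) for 12 U2OS poly(A) libraries. Per the study's methods and the submitters' notes, reads were quantified with kallisto 0.46.1 against Ensembl GRCh38 cDNA with ERCC sequences, with strand, summed to genes by tximport and divided by DESeq2 size factors from the 92 ERCC transcripts, which had been added per counted cell. Spike-in pipetting and cell counting therefore enter every value. Of the low values, 11.9% to 23.8% were whole reads (within 0.01, under 20 reads), so no count model was used. Depth was estimated by taking the most frequent value of a library as 1 read.

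Groups came from the sample labels. Values were log2-transformed with a pseudocount of 1 and fitted with limma 3.58.1 (R 4.3.3) as 6 group means over 12 libraries with a mean-variance trend. Tests were two-sided over the 13811 genes with an untreated mean of at least 10, and calls used a Benjamini-Hochberg adjusted p under 0.05. The fit was repeated after median-of-ratios rescaling. Fold changes on the log2(value + 1) scale understate those of low genes. Scripts were tested on simulated data and used Python 3.11.15, pandas 2.3.3, NumPy 2.4.6, SciPy 1.17.1 and matplotlib 3.10.9. Symbols were found for 19584 of 22379 gene IDs (2795 had none). All 10 members are named, with the 2 lowest and 2 highest genes of each other list by log2 fold change in the NONT response, and the 5 genes most like the members by Pearson's r. Members and lists were chosen with earlier results of these data known. Alternatives were a pseudocount of 10, a minimum of 50 or none, no trend, a replicate block, 3 other scales and each library left out.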

Additional observations from a re-analysis of the deposited data

How the results depend on the processing

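Of the results for single SR genes, 906 kept their direction and side of the threshold under settings other than a left-out library, 21 gained a call, 15 lost one and 38 changed sign. With a library left out the numbers were 1580, 35, 25 and 40. The cause was not tested. On the spike-in scale, rescaling by median of ratios gave 2 higher calls in the EXOSC5-KO response and 3 lower calls in untreated EXOSC5-KO, where equal sums gave 3 and the mitochondrial scale 4. A minimum of 50 gave 2 higher calls for the difference of NUP93-KO and, relative to the typical gene, 1 higher call in the NUP93-KO response. Relative to the typical gene, the 2 higher calls in the EXOSC5-KO response were 1 without the trend and 0 with equal sums, the 7 lower calls there were 5 without the trend (on the spike-in scale, 9 in place of 10), and the 3 lower calls in untreated EXOSC5-KO were 1 without the trend. With each library left out, higher calls ranged from 0 to 10 for the difference of NUP93-KO and 0 to 9 for that of EXOSC5-KO, where NONT untreated replicate 1 and NONT triptolide replicate 1 decided them, and, relative to the typical gene, from 0 to 1 in NONT, 0 to 1 in NUP93-KO and 0 to 2 in EXOSC5-KO, and lower calls in untreated EXOSC5-KO from 1 to 4. Lower calls in the EXOSC5-KO response ranged from 5 to 8 relative to the typical gene and from 8 to 10 on the spike-in scale, and moved only when an EXOSC5-KO library was left out.

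Gene by gene, no pairing of the libraries by replicate number was seen: over 15 pairs of groups the correlation of same-numbered deviations was −0.05 to 0.04. A shift shared by all genes of a library cannot show in this correlation, so pairing of that kind was not tested. With the replicate block, the response had 10, 9 and 10 lower calls on the spike-in scale and 7, 7 and 8 relative to the typical gene, with 2 higher in EXOSC5-KO, and the differences in response had 0.

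By median of ratios, the log2 values that changed sign were 0.043 for SRSF5, 0.11 for SRSF9 in the response in NONT, and 0.24 for SRSF5, 0.36 for SRSF9 in the response in NUP93-KO, and 0.47 for SRSF5, 0.46 for SRSF9 in the response in EXOSC5-KO, and 0.018 for SRSF9 in NUP93-KO against NONT untreated, and −0.029 for SRSF6 in EXOSC5-KO against NONT untreated, and −0.14 for SRSF3, −0.023 for SRSF7 in the difference in response of NUP93-KO minus NONT, and −0.39 for SRSF3, −0.057 for SRSF7, −0.23 for SRSF10 in the difference in response of EXOSC5-KO minus NONT. With equal sums, the log2 values that changed sign were 0.026 for SRSF9 in the response in NUP93-KO, and 0.18 for SRSF5, 0.17 for SRSF9 in the response in EXOSC5-KO, and 0.058 for SRSF9 in NUP93-KO against NONT untreated, and −0.014 for SRSF2, −0.16 for SRSF3, −0.013 for SRSF6, −0.045 for SRSF7, −0.016 for SRSF10 in the difference in response of NUP93-KO minus NONT, and −0.37 for SRSF3, −0.031 for SRSF7, −0.21 for SRSF10 in the difference in response of EXOSC5-KO minus NONT, and −0.27 for SRSF5, −0.20 for SRSF9 in the response in NONT (relative to the typical gene), and −0.091 for SRSF5 in the response in NUP93-KO (relative to the typical gene), and 0.041 for SRSF6 in EXOSC5-KO against NONT untreated (relative to the typical gene), and −0.014 for SRSF2, −0.013 for SRSF6, −0.016 for SRSF10 in the difference in response of NUP93-KO minus NONT (relative to the typical gene). On the mitochondrial scale, the log2 values that changed sign were 0.012 for SRSF9 in NUP93-KO against NONT untreated, and −0.13 for SRSF5, −0.31 for SRSF6 in EXOSC5-KO against NONT untreated, and −0.055 for SRSF3 in the difference in response of NUP93-KO minus NONT, and −0.28 for SRSF3, −0.12 for SRSF10 in the difference in response of EXOSC5-KO minus NONT. 

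With a library left out, the log2 values that changed sign ranged as follows. For EXOSC5-KO against NONT untreated, they were −0.36 to 0.25 for SRSF1, −0.34 to 0.27 for SRSF10, −0.55 to 0.27 for SRSF11, −0.75 to 0.059 for SRSF4, −0.022 to 0.52 for SRSF5, −0.19 to 0.32 for SRSF6. For NUP93-KO against NONT untreated, they were −0.56 to 0.054 for SRSF1, −0.54 to 0.069 for SRSF10, −0.75 to 0.068 for SRSF11, −0.58 to 0.020 for SRSF2, −0.67 to 0.14 for SRSF4, −0.41 to 0.14 for SRSF5, −0.38 to 0.14 for SRSF6, −0.26 to 0.15 for SRSF9. For the difference in response of NUP93-KO minus NONT (relative to the typical gene), they were −0.15 to 0.16 for SRSF10, −0.059 to 0.074 for SRSF2, −0.077 to 0.096 for SRSF6, −0.12 to 0.073 for SRSF7, −0.0058 to 0.50 for SRSF9. For the response in NONT (relative to the typical gene), they were −0.29 to 0.024 for SRSF10, −0.10 to 0.19 for SRSF5, −0.14 to 0.37 for SRSF9. For the difference in response of EXOSC5-KO minus NONT (relative to the typical gene), they were −0.029 to 0.10 for SRSF2, −0.15 to 0.039 for SRSF7. For the difference in response of EXOSC5-KO minus NONT, they were −0.068 to 0.42 for SRSF3. For NUP93-KO against NONT untreated (relative to the typical gene), they were −0.051 to 0.087 for SRSF9.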
